A study of Homo sapiens with 20 samples.

Results

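BMAL1 and HIF2α binding sites were compared within A498 cells whose BMAL1 had been targeted by a short hairpin RNA (shBMAL1). A498 is a clear cell renal cell carcinoma (ccRCC) line with an inactivated VHL gene. The members are all peaks of the deposited BMAL1 list (4261 peaks) and the deposited HIF2α list (3199 peaks) labelled shBMAL1, together 7460 of the 12171 peaks in the 4 lists of the study. A peak that overlapped a peak of the other list by at least 1 bp was called shared, and the remaining peaks were called BMAL1 only or HIF2α only. This gave 905 shared and 3356 BMAL1 only peaks in the BMAL1 list (21.2% shared), and 910 shared and 2289 HIF2α only peaks in the HIF2α list (28.4% shared). Since 1 peak can overlap several, the shared peaks formed 912 overlapping pairs.

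The study profiled chromatin by CUT&RUN, which releases antibody-bound DNA fragments for sequencing, in 20 libraries of 6 groups. Cells carried a lentiviral pLKO.1 hairpin, either shBMAL1 or the control hairpin shCNT, had been selected with puromycin and were kept in DMEM with serum. Each hairpin had 4 libraries with a BMAL1 antibody, 4 with a HIF-2α antibody and 2 with a control IgG. All came from this 1 cell line. The paper's methods describe 3 biological replicates and its checklist technical triplicates, whereas the labels give 4 libraries for each antibody and hairpin. A list was deposited with 1 library of each of the 4 BMAL1 and HIF2α groups, so no difference between lists has a replicate check. The intervals given below are 95% intervals that cover counting error over peaks only. The lists carry no measure of BMAL1 protein, and the number of BMAL1 peaks went against the label, with 4261 in the list labelled shBMAL1 and 2350 in the shCNT list. The shBMAL1 lists were shallow. The median fragment pileup at a summit was 5 for both antibodies, from 3 to 76 for BMAL1 and from 3 to 129 for HIF2α, and 39.8% of BMAL1 and 34.8% of HIF2α peaks had a pileup under 5. In the shCNT lists the smallest pileup was 4, and 10.5% of BMAL1 and 9.61% of HIF2α peaks were under 5. The lists thus had different floors, and their peak counts are not on the same scale.

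BMAL1 and HIF2α belong to the bHLH-PAS family, whose members bind DNA as pairs. BMAL1 pairs with CLOCK at the E-box CACGTG to drive clock genes such as PER1 and NR1D1, whereas HIF2α classically pairs with ARNT at the hypoxia response element (HRE), with the core RCGTG (R is A or G), to drive genes of glycolysis and angiogenesis. The E-box contains the HRE core, so each E-box was also counted as an HRE. Without VHL, HIF2α is not degraded and is a main driver of ccRCC.

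The sequence around 3 of the strongest sites of each class, and around 4 further sites at clock and HIF target genes, is shown because the classes differed most in the letters next to the HRE core. Each is 150 bases of the plus strand of GRCh37 centred on a summit, and capitals mark the E-box CACGTG, the HRE core RCGTG, the AP-1 site TGASTCA (S is C or G) and the GC box GGGCGG, all on either strand. The BMAL1 only peaks shown first are the 3 strongest of their class, at chr21:47062964-47063113, 569 bp upstream of the start of PCBP3, a poly(C) binding protein, at chr19:3285309-3285458, in an intron 29017 bp upstream of the nearest start, that of the transcription factor NFIC, and at chr19:30335842-30335991, in intergenic DNA downstream of the cell cycle gene CCNE1.
PCBP3: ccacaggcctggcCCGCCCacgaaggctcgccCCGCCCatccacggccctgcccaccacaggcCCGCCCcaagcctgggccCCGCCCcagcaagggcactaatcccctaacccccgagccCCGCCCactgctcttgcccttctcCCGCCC
NFIC: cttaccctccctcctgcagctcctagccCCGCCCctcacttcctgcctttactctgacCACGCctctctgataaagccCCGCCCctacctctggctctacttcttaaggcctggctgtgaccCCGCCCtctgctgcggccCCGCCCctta
CCNE1: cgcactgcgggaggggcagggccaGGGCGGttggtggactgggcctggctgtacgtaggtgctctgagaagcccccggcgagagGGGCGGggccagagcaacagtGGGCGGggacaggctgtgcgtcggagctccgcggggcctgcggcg
These windows hold 6, 4 and 3 GC boxes, with no E-box in any and an HRE core only at NFIC. The TEF peak, at chr22:41777318-41777467, and the NR1D1 peak, at chr17:38256913-38257062, are shown as BMAL1 only clock gene promoters. TEF is a clock-controlled PAR bZIP factor and has 2 E-boxes here, whereas the NR1D1 window has none and 2 HRE cores.
TEF: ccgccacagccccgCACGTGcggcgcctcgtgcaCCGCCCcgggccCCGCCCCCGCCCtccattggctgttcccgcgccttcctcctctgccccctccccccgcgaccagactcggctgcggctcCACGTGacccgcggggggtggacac
NR1D1: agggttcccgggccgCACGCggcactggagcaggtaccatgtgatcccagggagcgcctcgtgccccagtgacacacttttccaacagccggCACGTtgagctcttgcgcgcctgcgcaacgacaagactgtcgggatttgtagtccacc
Of the HIF2α only class, 3 of the strongest peaks are shown, at PGK1 (phosphoglycerate kinase, chrX:77359536-77359685), in an intron upstream of the nearest start, that of EYA2 (chr20:45588000-45588149), and at LDHA (lactate dehydrogenase, chr11:18415879-18416028), with that of VEGFA (the angiogenic growth factor, chr6:43737548-43737697) as a HIF target gene.
PGK1: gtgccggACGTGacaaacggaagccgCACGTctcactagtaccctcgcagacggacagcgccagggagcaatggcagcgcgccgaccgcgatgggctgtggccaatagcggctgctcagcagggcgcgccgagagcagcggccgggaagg
EYA2: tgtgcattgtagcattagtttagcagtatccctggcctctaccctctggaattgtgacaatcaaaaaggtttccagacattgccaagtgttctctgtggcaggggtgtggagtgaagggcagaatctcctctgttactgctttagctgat
LDHA: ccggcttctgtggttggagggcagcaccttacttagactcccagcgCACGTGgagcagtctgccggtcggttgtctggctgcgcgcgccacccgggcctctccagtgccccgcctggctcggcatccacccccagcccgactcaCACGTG
VEGFA: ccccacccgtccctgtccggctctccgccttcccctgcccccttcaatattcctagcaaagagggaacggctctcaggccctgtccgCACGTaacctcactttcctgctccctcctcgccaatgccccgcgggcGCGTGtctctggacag
EYA2 has none of the marked motifs, LDHA has 2 E-boxes, PGK1 has 2 HRE cores, and VEGFA has the extended core TACGTG, read as CACGTA on the plus strand. The shared class is shown by the pair with the highest weaker rank (chr5:92414357-92414506, intergenic, 504496 bp upstream of the nuclear receptor gene NR2F1), by the next in that order, in an intron of EGFR (chr7:55253940-55254089), by the promoter of IBA57, an iron-sulfur cluster assembly gene (chr1:228353236-228353385), and by the promoter of PER1, a repressor of the clock (chr17:8059831-8059980).
NR2F1: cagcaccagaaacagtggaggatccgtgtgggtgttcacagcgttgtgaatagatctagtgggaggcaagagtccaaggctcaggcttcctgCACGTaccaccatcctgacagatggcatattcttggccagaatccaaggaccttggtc
EGFR: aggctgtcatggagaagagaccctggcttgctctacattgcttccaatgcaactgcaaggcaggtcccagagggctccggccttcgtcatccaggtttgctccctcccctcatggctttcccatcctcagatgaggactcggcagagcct
IBA57: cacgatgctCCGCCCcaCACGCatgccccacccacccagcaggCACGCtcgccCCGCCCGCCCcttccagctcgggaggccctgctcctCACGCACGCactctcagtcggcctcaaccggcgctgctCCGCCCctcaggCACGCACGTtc
PER1: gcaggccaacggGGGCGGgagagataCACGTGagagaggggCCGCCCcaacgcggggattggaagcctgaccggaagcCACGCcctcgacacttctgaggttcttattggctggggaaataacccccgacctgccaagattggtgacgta
NR2F1 has 1 TACGTG, EGFR has none of the marked motifs, IBA57 has 6 HRE cores with 4 GC boxes, and PER1 has 1 E-box with 2 GC boxes. The NR2F1, EGFR and IBA57 sequences are centred on the HIF2α summit and that of PER1 on the BMAL1 summit. At EGFR the 200 bp window around the BMAL1 summit did hold an HRE core.

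Motifs were counted as the share of 200 bp summit windows with at least 1 match on either strand. The HRE core was found in 59.9% of HIF2α only windows (57.9 to 61.9%) and 35.9% of BMAL1 only windows (34.3 to 37.6%), a difference of 24.0 percentage points (21.4 to 26.6). Shared sites lay between when centred on the BMAL1 summit (47.6%) and close to the HIF2α only class when centred on the HIF2α summit (57.8%). The core was present in 42.7% of equally long windows at the starts of 20098 coding genes. Those windows all lie at promoters, whereas most peaks of each class did not. Within 1 kb of a start the core was found in 51.8% of BMAL1 only and 69.2% of HIF2α only windows. Elsewhere these shares were 25.8% and 54.5%. The E-box, the classical BMAL1 site, was rare in every class. It was found in 4.23% of BMAL1 only, 4.64% of shared BMAL1, 5.05% of shared HIF2α and 6.38% of HIF2α only windows, and in 5.87% of windows at gene starts. The HIF2α only share was 2.15 points above the BMAL1 only share (0.962 to 3.39), and the ratio to flanks was 2.56 for HIF2α only and 1.70 for BMAL1 only peaks. Within 1 kb of a start the E-box was found in 5.88% of BMAL1 only and 8.82% of HIF2α only windows, and elsewhere in 3.18% and 4.93%.

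The HRE contrast lay in the ACGTG form of the core and was largest when a T preceded it. This TACGTG was present in 519 of 2289 HIF2α only windows (22.7%, 21.0 to 24.4%) and 56 of 3356 BMAL1 only windows (1.67%, 1.29 to 2.16%). Windows 2 kb to either side held it in 2.10% and 2.15% of cases, so the site was 10.8 times as frequent as in flanks at HIF2α only peaks and 0.778 times as frequent at BMAL1 only peaks. Gene starts held it in 2.16% of windows. Shared sites were intermediate, with 14.7% of windows centred on HIF2α summits and 7.29% of those centred on BMAL1 summits. The shared HIF2α share was 7.95 points under that of HIF2α only peaks (interval of shared minus HIF2α only -10.7 to -4.98). GACGTG was found in 13.9% of HIF2α only and 4.47% of BMAL1 only windows, and in 14.3% and 11.0% of shared windows of the HIF2α and BMAL1 lists. Unlike TACGTG, it did not separate shared HIF2α from HIF2α only windows (difference 0.393 points, -2.19 to 3.17). The variant GCGTG did not separate the exclusive classes, with 26.9% of HIF2α only and 26.7% of BMAL1 only windows (difference 0.213 points, -2.13 to 2.58). It was more frequent in shared windows, by 6.93 points against HIF2α only (3.41 to 10.5) and 3.91 points against BMAL1 only (0.620 to 7.32). At gene starts GACGTG was found in 6.19% and GCGTG in 32.5% of windows. Among peaks within 1 kb of a start, GCGTG was found in 42.6% of HIF2α only and 42.8% of BMAL1 only windows.

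**Figure D1:**
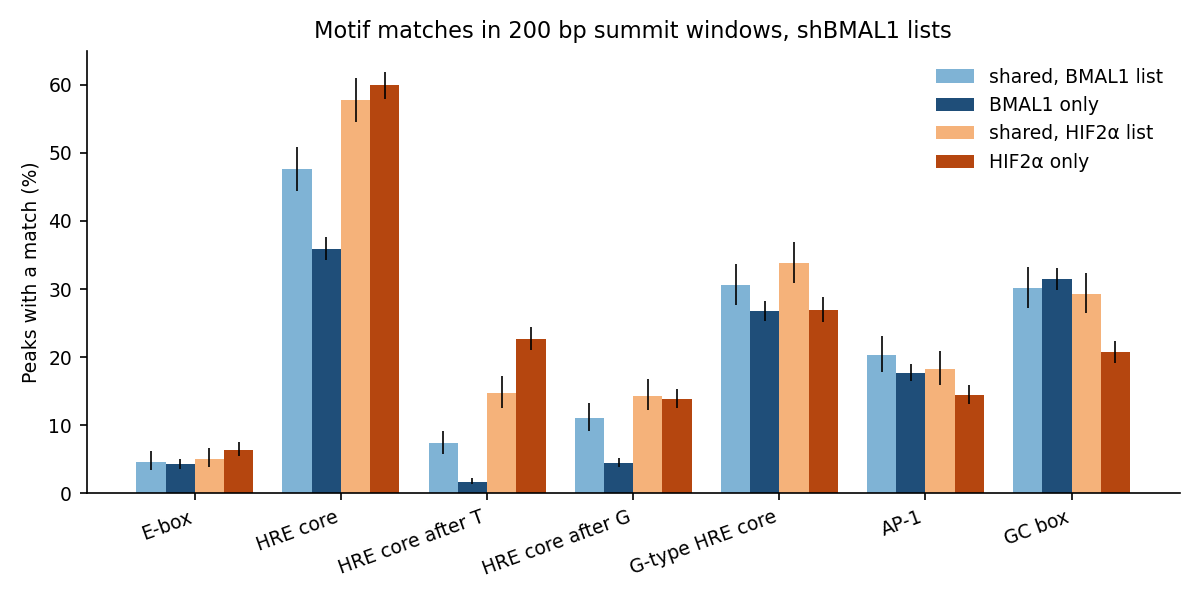
Share of 200 bp summit windows (%, vertical axis) with each motif in the 4 peak classes of the shBMAL1 lists, where HRE core after T is TACGTG, HRE core after G is GACGTG and the G-type core is GCGTG, with bars for the shares and lines for 95% Wilson intervals. TACGTG ranges from 1.67% in BMAL1 only to 22.7% in HIF2α only windows, while the G-type core lies between 26.7% and 33.8% in all classes.

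The search was then widened to all 6-base words, each counted together with its reverse complement. Of 1994 words present in at least 2% of either set of windows, 84 (4.21%) were at least 1.5 times as frequent in HIF2α only as in BMAL1 only windows, and 9 (0.451%) the other way. Among the 16 words with RCGTG, 10 were in the first group and 14 had a ratio above 1. The word with the highest ratio was TACGTG (13.6, 10.4 to 17.8), followed by GTACGT (12.46, 8.19 to 18.96), GCACGT (7.32) and CTACGT (7.22), which overlap it in sequence. The words higher in BMAL1 only windows were led by CGACGA (1.74, 1.12 to 2.71), and the most frequent of them was the GC box GGGCGG, with 31.4% of BMAL1 only against 20.7% of HIF2α only windows (ratio 1.52, 1.38 to 1.67). Gene starts held the GC box in 46.6% of windows. Median GC content of the windows was 53.75% for BMAL1 only and 51.0% for HIF2α only, and its part in the GC box difference was not tested.

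These contrasts were present at promoters and away from them. Within 1 kb of a transcription start, TACGTG was found in 19.5% of HIF2α only and 1.15% of BMAL1 only windows, and elsewhere in 24.5% and 2.00%. The GC box was found in 43.2% against 62.4% at promoters and in 7.44% against 11.6% elsewhere. AP-1, the site of the FOS and JUN factors, was the exception. It was found in 6.82% of HIF2α only and 6.95% of BMAL1 only promoter windows, whereas at distal sites the shares were 18.97% and 24.58% (difference -5.61 points, -8.34 to -2.83). Over all positions the difference was -3.24 points, and its interval included 0 with a −log10 p of at least 8 (-1.01, -3.62 to 1.65) or a pileup of at least 5 (-1.28, -3.76 to 1.24). By class, AP-1 was found in 20.3% of shared BMAL1, 17.7% of BMAL1 only, 18.2% of shared HIF2α and 14.5% of HIF2α only windows, against 3.29% to 3.70% of flanks and 2.63% of gene starts. Many sites had none of these motifs, since 50.9% of BMAL1 only and 34.8% of HIF2α only windows held no E-box, HRE core or AP-1 site.

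The letters also followed peak strength, measured as the quartile of the deposited −log10 p within each list. Going up the quartiles, the HRE core was found in 41.7%, 49.8%, 67.2% and 82.9% of HIF2α only windows, and TACGTG in 7.05%, 13.3%, 24.7% and 47.0%. Shared HIF2α windows held TACGTG in 2.84%, 7.94%, 8.71% and 32.4%, below the HIF2α only value in each quartile. BMAL1 only peaks held TACGTG in 2.07% of the weakest and 0.494% of the strongest quartile (4 of 810 windows), while GCGTG went from 20.9% to 38.3% and the GC box from 22.6% to 53.7%. Promoter location went from 34.5% to 51.9% over the same quartiles of BMAL1 only peaks. The E-box was found in 3.17% of the weakest and 5.19% of the strongest BMAL1 only peaks, whose intervals overlap.

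Motif position was read around each summit. At HIF2α only peaks the HRE core reached 11.9 matches per 100 peaks in the 20 bp bins centred 70 bp before the summit and 11.97 in those 70 bp after it, with 8.74 in the bin just before the summit. Within 50 bp its density was 2.25 times that farther than 300 bp out, against 1.96 for shared HIF2α, 1.48 for shared BMAL1 and 1.32 for BMAL1 only peaks. AP-1 was concentrated at summits of every class, with ratios from 3.87 to 4.89. The E-box ratio was 2.13 at HIF2α only and 1.13 at BMAL1 only peaks, from 501 and 663 matches in all.

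**Figure D2:**
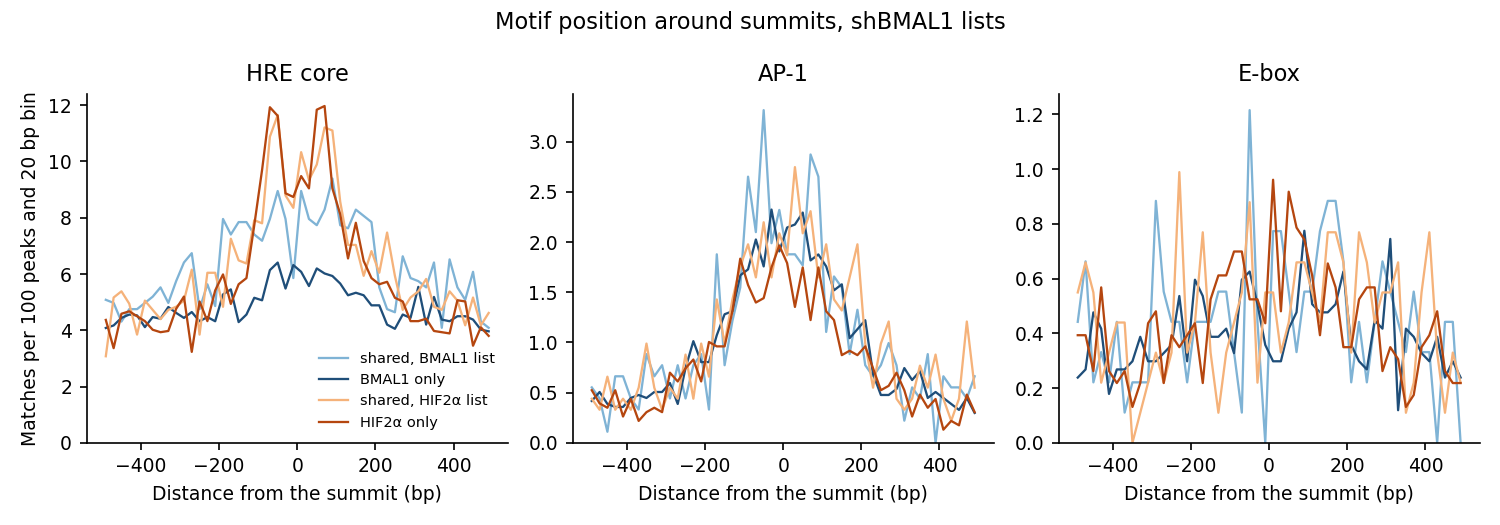
Matches per 100 peaks and 20 bp bin (vertical axis) against distance from the summit in bp (horizontal axis) for the HRE core, AP-1 and the E-box in the 4 classes of the shBMAL1 lists. The HRE core of both HIF2α classes rises on either side of the summit, the BMAL1 only line stays under 7 matches, and AP-1 is central in all classes.

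The overlap rule itself keeps the summits of a shared pair near each other, since shared peaks had median widths of 317 bp (BMAL1) and 322.5 bp (HIF2α). The distances between both summits are therefore a description of the pairs. The median distance over the 912 pairs was 113.5 bp (101 to 125), with quartiles of 48 and 208 bp. In 27.2% of pairs the summits were within 50 bp, in 73.0% within 200 bp, and in 54 pairs (5.92%) more than 500 bp apart. The 590 shared pairs of the shCNT lists had a median of 100 bp (91 to 110). Pairs with AP-1 in the HIF2α window were closest (94 bp, 72 to 113, 167 pairs) and those with an E-box in either window farthest (138 bp, 97 to 183, 69 pairs), but these intervals overlap each other. The distance was 115 bp at promoters and 113 bp at distal sites, and 112 bp with an HRE core and 117.5 bp without. In 373 pairs with an HRE core in both windows, the core nearest to a summit was nearer that of HIF2α in 194 and that of BMAL1 in 173 (52.9% of the untied pairs, 47.8 to 57.9%).

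Few sites lay near the 1 bp threshold of the class rule, but stricter rules changed the class of more of them. The smallest overlap of a shared pair was 1 bp, and 51 pairs overlapped by less than 50 bp. Outside it, 72 BMAL1 only and 70 HIF2α only peaks had a peak of the other list within 400 bp. Most others were far away, with a median gap of 142998 bp for BMAL1 only and 106249 bp for HIF2α only peaks, and 11.3% and 16.9% within 10 kb. With an overlap of 50% of the shorter peak, 18.6% of BMAL1 and 24.9% of HIF2α peaks were shared. With summits within 200 bp these shares were 16.0% and 21.3%.

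**Figure D3:**
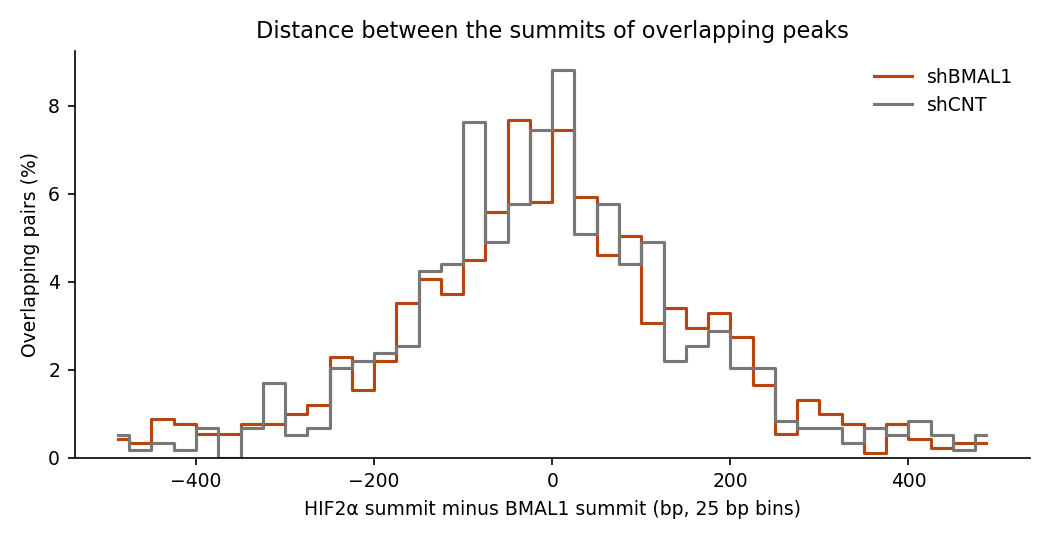
Distribution of the signed distance from the BMAL1 summit to the HIF2α summit of overlapping peaks (bp, horizontal axis, 25 bp bins) as the share of pairs (%, vertical axis), for the shBMAL1 and shCNT lists. Both distributions are centred near 0, with 73.0% of shBMAL1 pairs within 200 bp.

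Shared peaks ranked higher than exclusive ones in both lists as deposited. Strength is given as the percentile of a peak's −log10 p in its own list. The −log10 p depends on the local background as well as on the pileup. That background was above the genome value at 57.8% of BMAL1 and 50.3% of HIF2α peaks. The median percentile was 61.3 for shared and 48.5 for BMAL1 only peaks, and 57.8 for shared and 47.0 for HIF2α only peaks. With a −log10 p of at least 8 in both lists, the BMAL1 difference of 12.8 points became 4.91 (-1.69 to 11.2) and the HIF2α difference of 10.8 points became 0.709 (-5.21 to 5.63). The HIF2α difference was also 0 with a pileup of at least 5. Shared peaks were also wider (median 317 against 221 bp for BMAL1 and 322.5 against 235 bp for HIF2α), and a wider peak meets the overlap rule more easily. Going up the quartiles, 13.9%, 18.1%, 22.6% and 29.2% of BMAL1 peaks were shared, and 22.0%, 25.6%, 32.4% and 33.2% of HIF2α peaks. The lists differed at the very top. Of the 50 strongest BMAL1 peaks 9 were shared (18.0%, 9.77 to 30.8%), and of the 50 strongest HIF2α peaks 25 were (36.6 to 63.4%).

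Percentiles of both peaks of a pair were nearly unrelated. Over the 912 pairs, Spearman's rho between the percentiles was 0.0114 and Pearson's r 0.0112, given as a description of pairs that share the cell line and the overlap rule, and over the 590 shCNT pairs they were 0.0138 and 0.0180. A percentile above 90 was reached by 113 pairs for BMAL1, by 109 for HIF2α and by 16 for both. In 213 pairs the percentiles were more than 50 points apart, 119 with BMAL1 and 94 with HIF2α higher. When pairs were split into 3 equal groups of 304 by this difference, TACGTG in the HIF2α window went from 4.28% in the BMAL1-leaning group to 13.8% and 26.0% in the HIF2α-leaning group. In the BMAL1 window it went from 2.96% to 6.25% and 12.8%. The GC box ran the other way (35.5%, 28.6% and 23.7% of HIF2α windows), and the E-box was found in 4.93%, 5.26% and 4.93%. For TACGTG and the GC box, the groups had the order of the exclusive classes. They are cut on the percentiles with which both motifs vary among shared peaks, so this adds no separate evidence. From the weakest to the strongest quartile, TACGTG went from 2.84% to 32.4% of shared HIF2α windows. The GC box went from 23.0% to 39.2% of shared BMAL1 windows.

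**Figure D4:**
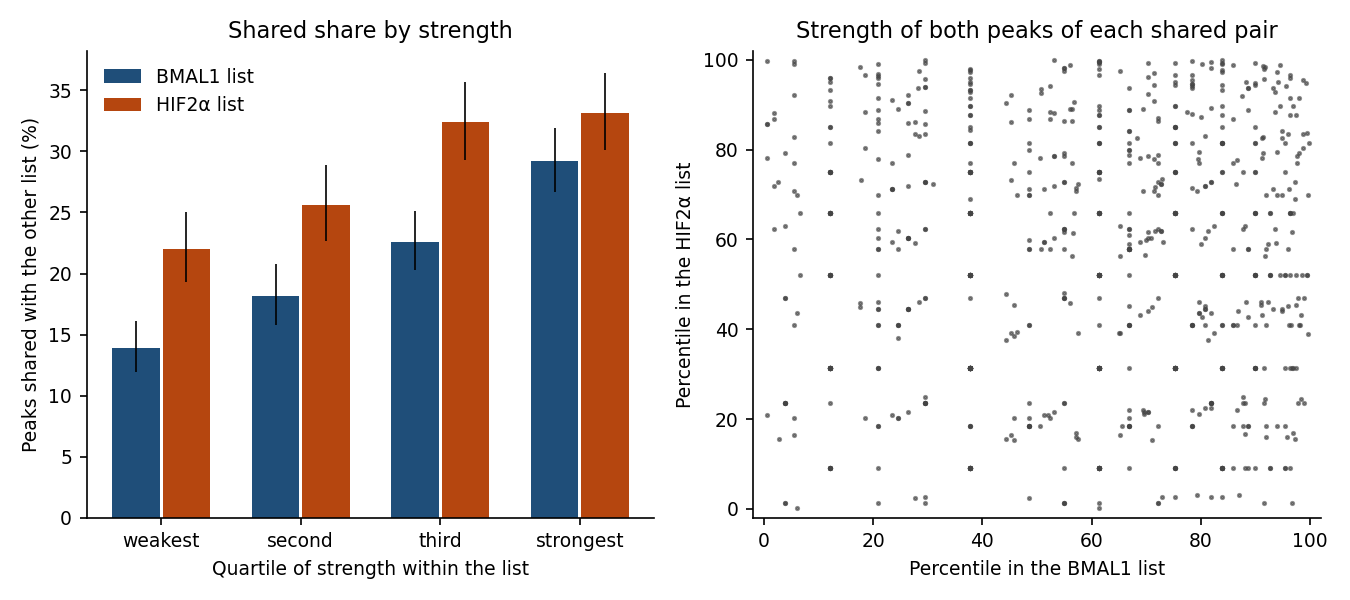
Left, share of peaks that overlap the other list (%, vertical axis) by quartile of −log10 p in each list, with 95% Wilson intervals. Right, percentile of each shared pair in the HIF2α list against its percentile in the BMAL1 list (912 points, columns and rows of points arise from tied p-values), where the points fill the whole square.

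The 5 shared pairs with the highest weaker percentile were named by their nearest coding gene. The NR2F1 pair had percentiles of 96.3 for BMAL1 and 96.7 for HIF2α, with summits 117 bp apart and pileups of 12 and 17. A pair in an intron of EGFR, the growth factor receptor, had 96.3 and 96.0, with summits 80 bp apart. At the promoters of IBA57 (98.7 and 95.5) and SPAG4, a nuclear envelope protein gene (99.2 and 94.8), the summits were 8 and 9 bp apart. A pair in an intron of the mitotic kinase gene NEK6 had 94.4 and 98.9. These 5 were present in the shCNT HIF2α list, and 4 of them, all but NR2F1, in the shCNT BMAL1 list.

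The least balanced pairs leaned to either side. HIF2α ranked far above BMAL1 at the promoter of the histone demethylase gene KDM3A (percentile 99.6 against 0.493, pileup 33 against 3), at RIN2, which encodes a RAB5 exchange factor (99.7 against 5.42), and at TF, the transferrin gene (pileup 27 against 6). At RIN2 and TF the BMAL1 pileup was 6 over a local background of 0.589, while the genome value of that list was 0.0839. BMAL1 ranked above HIF2α at the promoters of POLD1, the catalytic subunit of DNA polymerase delta (96.7 against 1.36, pileup 13 against 3), and of CAP1, a regulator of actin (96.3 against 9.13), and in an intron of SH3BP4, an endocytosis gene (91.6 against 1.36).

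The strongest BMAL1 only peaks had PCBP3 (pileup 76), NFIC (61), CCNE1 (56), TMEM141 (44) and IQUB (41) as their nearest genes. The NFIC peak lay 29017 bp upstream of the start, and that of the cell cycle gene CCNE1 in intergenic DNA 32356 bp downstream. All 5 were also called in the shCNT BMAL1 list and none had an E-box in its window. The TMEM141 peak was in the shCNT HIF2α list as well. The strongest HIF2α only peaks had PGK1 (129), EYA2 (52), NDRG1 (45), LDHA (38) and CREB1 (43) as their nearest genes. The peak of EYA2, which encodes a transcriptional coactivator, lay 30565 bp upstream of its start. That of NDRG1, a hypoxia-induced gene, lay 78094 bp upstream. The peak of CREB1, the cAMP-responsive factor, lay in an intron 134750 bp upstream of its start. No sequence is shown for the NDRG1 site, which ranked between those of EYA2 and LDHA. All 5 were in the shCNT HIF2α list, and those at NDRG1 and LDHA in the shCNT BMAL1 list as well. The windows at NDRG1 and LDHA also held an E-box.

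Over all peaks as deposited, position relative to genes hardly separated the classes. Summits within 1 kb of a start made up 39.0% of BMAL1 only (37.4 to 40.7%), 37.1% of HIF2α only (35.2 to 39.1%), 37.9% of shared BMAL1 and 37.8% of shared HIF2α peaks. The difference between the exclusive classes was 1.90 points (-0.684 to 4.47). It was 6.74 points (3.34 to 10.1) with a −log10 p of at least 8 in both lists. With a pileup of at least 5 it was 4.55 (1.35 to 7.73), and with lists of equal length 3.90 (1.16 to 6.62). Its interval included 0 with an overlap of 50% (1.81), summits within 200 bp (1.84), a 5 kb limit (2.63) or autosomes alone (1.72). In the strongest quartile, promoters held 51.9% of BMAL1 only, 36.6% of HIF2α only, 41.9% of shared BMAL1 and 33.5% of shared HIF2α peaks. Introns held 39.6% to 40.9% and intergenic DNA 18.0% to 19.1% of summits in all classes.

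Sites were then looked up in the control hairpin lists, which had no part in the class rule. The lookup again used an overlap of at least 1 bp, which a wider peak meets more easily. Shared peaks were wider (median 317 against 221 bp for BMAL1, 322.5 against 235 bp for HIF2α), and the part of width was not tested. Of shared BMAL1 peaks 43.1% overlapped a shCNT BMAL1 peak, against 21.5% of BMAL1 only peaks (difference 21.6 points, 18.1 to 25.2), and the shared share was higher in every quartile of strength, by 10.9 to 19.9 points. Of the 905 shared BMAL1 peaks, 220 (24.3%) overlapped a peak in both shCNT lists. For HIF2α the classes were closer. A shCNT HIF2α peak overlapped 46.0% of shared and 39.3% of HIF2α only peaks (difference 6.73 points, 2.93 to 10.5). Across the quartiles, from weak to strong, this difference was 9.73, 3.12, -6.22 and 1.64 points, and its interval excluded 0 in the weakest alone. In the strongest quartile 82.6% of shared and 80.9% of HIF2α only peaks were found in the shCNT HIF2α list, whereas for BMAL1 these values were 61.4% and 41.5%. Neither shCNT list held 75.9% of BMAL1 only, 57.8% of HIF2α only, 36.7% of shared BMAL1 and 37.0% of shared HIF2α peaks.

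BMAL1 only peaks that were also in the shCNT BMAL1 list differed in sequence from those that were not. The E-box was found in 6.81% against 3.53% of windows, the HRE core in 46.3% against 33.1%, the GC box in 48.2% against 26.9% and AP-1 in 13.6% against 18.8%. They also lay at promoters more often (55.3% against 34.6%) and had a higher median percentile (70.9 against 37.7), so motif, location and strength cannot be told apart here. HIF2α only peaks also in the shCNT HIF2α list held TACGTG in 37.3% of windows, and the rest in 13.2%.

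Genes were assigned a peak when a summit lay within 10 kb of a transcription start. Of 20090 coding genes, 12.4% had a BMAL1 summit, 9.04% a HIF2α summit and 2.9% a shared peak. In the shCNT lists 9.06% had a BMAL1 and 8.05% a HIF2α summit, so the shares over all genes differed between hairpins too. The gene lists hold 12 to 73 genes, and their counts were read against these shares without a test. Under shBMAL1 both antibodies had a summit at 758 genes, of which 580 had a shared peak and 178 had separate peaks. The BMAL1 only and HIF2α only classes had 2610 and 1807 distinct nearest genes, with 456 in common, which is 17.5% of the first and 25.2% of the second.

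Glycolysis genes were mostly HIF2α sites. Of 19 glycolytic enzyme and transporter genes, 15 had a HIF2α summit and 6 a BMAL1 summit, and none had BMAL1 without HIF2α. Strong HIF2α only peaks lay at PGK1 (percentile 100), LDHA (99.8), GPI, the glucose phosphate isomerase gene (98.8), and PKM, the pyruvate kinase gene (98.3). Where a glycolysis gene had a shared peak, BMAL1 had the lower percentile at ALDOA, the aldolase gene (56.1 against 98.7), at GAPDH (37.7 against 94.6) and at the stronger pair of PKM (12.1 against 90.9). The lactate exporter gene SLC16A3 had the reverse (69.6 against 21.5). The GAPDH peaks overlap, but their summits lay 1887 bp (BMAL1) and 122 bp (HIF2α) upstream of the start. At PKM the summits were also apart, at positions 72523794 (BMAL1) and 72522980 (HIF2α) of chromosome 15. The shCNT lists gave similar counts, with 15 genes for HIF2α and 7 for BMAL1.

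HIF target genes had peaks of both factors. Of 20 genes, 13 had a HIF2α summit, 10 a BMAL1 summit and 6 a shared peak. The shCNT lists gave 11 genes for HIF2α and 5 for BMAL1. At DDIT4, an mTORC1 inhibitor, the percentiles were 84.0 for BMAL1 and 99.3 for HIF2α, with pileups of 7 and 27. At ADM, the vasodilator adrenomedullin, a downstream pair had 29.6 and 99.9 and a promoter pair 53.2 and 21.5. At the carbonic anhydrase gene CA12 they were 18.6 and 96.6, and at TGFA, an EGFR ligand, 53.2 and 71.9. NDRG1 had both factors high at its promoter (87.5 and 91.9). VEGFA (97.2) and ANGPTL4, a lipid metabolism regulator (98.7), had HIF2α only peaks. BNIP3, a mitophagy gene, had a BMAL1 only peak with an E-box at percentile 37.7, and STC2, a secreted glycoprotein gene, had 1 at 20.8.

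Clock genes also had peaks of both. Of 16 genes, 9 had a BMAL1 summit, 7 a HIF2α summit and 4 a shared peak, against 11 and 4 with the shCNT antibodies. The shared ones were PER1 (99.5 for BMAL1 with a pileup of 33, 83.7 for HIF2α with 12), PER2, also a period repressor (75.3 and 65.9), DBP, a clock-controlled bZIP factor (85.9 and 18.3), and BHLHE41, a bHLH repressor (61.3 and 52.1). At PER1 the summits were 33 bp apart, and both windows held an E-box. The BMAL1 only peaks included the repressor genes CRY2 (98.4), NR1D1 (87.1) and CRY1 (82.4), as well as TEF (84.0). HIF2α only peaks lay at BHLHE40, a bHLH repressor that is also induced by hypoxia (94.3 at its promoter, with an E-box, and 2 further peaks), NFIL3, a bZIP repressor (86.4), and NR1D2 (31.3).

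Among 17 bHLH-PAS and oxygen sensing genes, 4 had a BMAL1 and 3 a HIF2α summit. BMAL1 only peaks lay at ARNT (61.3), HIF1A (48.5) and the prolyl hydroxylase gene EGLN2 (69.4), a shared pair at EGLN1 (12.1 and 65.9), and weak HIF2α only peaks at CLOCK (1.36) and HIF3A (16.0). Of 12 AP-1 genes 6 had a BMAL1 summit and 5 a HIF2α summit, against 2 and 3 in the shCNT lists, with JUN a HIF2α only site (91.5) and FOSL2 shared (80.0 and 59.0). Of 14 renal lineage factor genes, 1 had a BMAL1 peak (PAX8) and 1 a HIF2α peak (LHX1). Of 73 ribosomal protein genes, 7 and 6 had a peak and none a shared one. These last 2 lists were thus near or below the share of all coding genes.

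**Figure D5:**
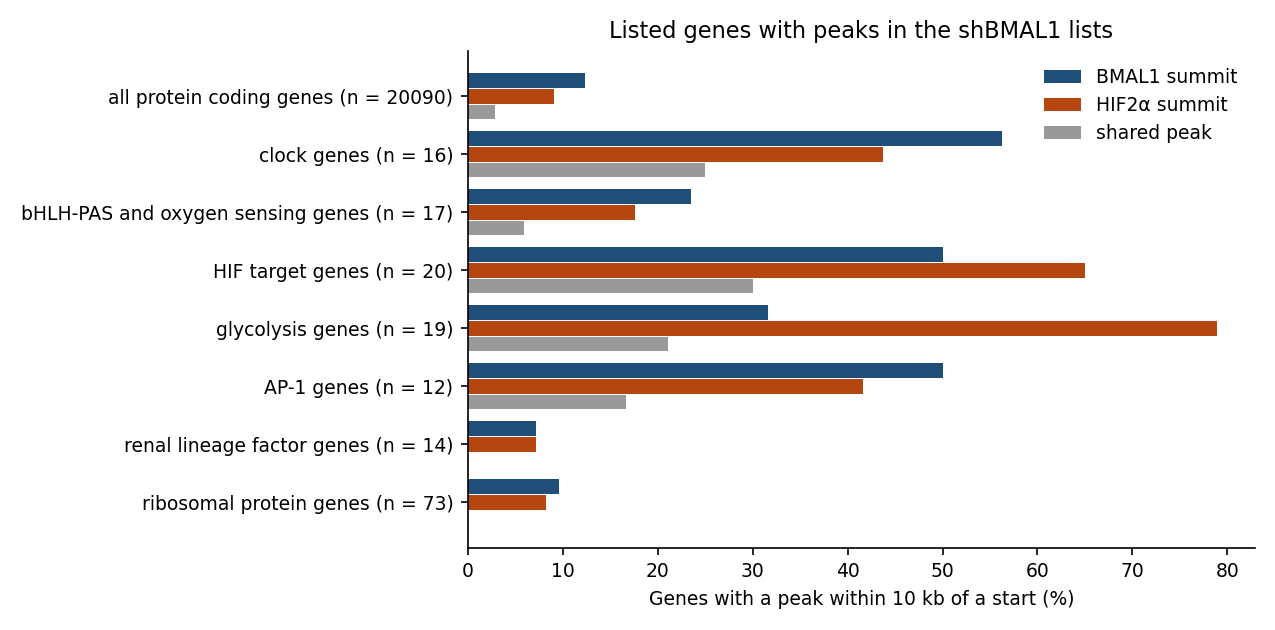
Share of genes in each list (%, horizontal axis) with a BMAL1 summit, a HIF2α summit or a shared peak within 10 kb of a transcription start in the shBMAL1 lists, with the number of genes in each list given at the left. Glycolysis genes reach 78.9% for HIF2α and 31.6% for BMAL1, while ribosomal protein and renal lineage factor genes stay under 10%.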

How the data were processed

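CUT&RUN reads were mapped by the authors to hg19 (GRCh37) and freed of duplicates before MACS2 peak calling (p limit 1e-05, gaps up to 400 bp joined), after which blacklisted regions were taken out. Mapping used Bowtie2 2.5.3, and the submitters' processing notes further name deepTools 3.5.5, HOMER 4.11, MACS2 2.2.9.1, SAMtools 1.6 and bedtools 2.31.1. The pooling of libraries and the control behind each list are not given in the sources used here. Each deposited peak has a fold enrichment of summit pileup over local background, a −log10 p, a −log10 q, a score derived from the −log10 p, and a summit offset from its start. The fold and −log10 p were used here, the −log10 q and score were not. The other 16 libraries had no list of their own and were not analysed here.

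Fragment pileups were solved from the deposited fold and −log10 p. A whole number was accepted when it gave back the deposited −log10 p within 0.02% or 0.0005, whichever was larger, and 1 was found for all peaks. Starts and gene parts were taken from GENCODE release 44 lifted to GRCh37, a promoter being 1 kb to either side of a basic transcript start. Motifs were searched on both strands in 200 bp summit windows and in windows 2 kb away. Each motif was counted as present or absent, and an E-box counted as an HRE too. Words of 6 bases were called at a ratio of at least 1.5 with at least 2% of windows in either class. Quartiles of strength used the −log10 p cut points of the whole list, with tied peaks kept together, so they differ in size. Intervals are Wilson for shares, Newcombe for differences of shares and order-statistic for medians. No p-value was computed, since each group had 1 list and peaks are not replicates.

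The members and lists were chosen with earlier results of these data known. Genes that could be named were those of the gene lists with a summit within 10 kb of a start, of which the ones described were picked with their values known, the genes nearest to the 5 strongest peaks of each exclusive class, those of the 5 shared pairs with the highest weaker percentile and those of the 3 pairs leaning most to each factor. Scripts were tested on simulated data. Alternatives were a stricter overlap (50% of the shorter peak), summits within 200 bp in place of overlap, a −log10 p of at least 8, a pileup of at least 5, lists of equal length, windows of 100 and 400 bp, a promoter limit of 5 kb and gene bodies with 10 kb. Scripts ran in Python 3.11.15 with pandas 2.3.3, pysam 0.24.0, numpy 2.4.6, matplotlib 3.10.9 and scipy 1.17.1.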

Additional observations from a re-analysis of the deposited data

Results flagged for a closer look

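Several class contrasts had opposite signs in the shBMAL1 and shCNT lists. The difference between hairpins was not tested, since each group had 1 list. The E-box share of HIF2α only minus BMAL1 only windows was 2.15 percentage points under shBMAL1 and -5.59 in shCNT, and that of shared minus HIF2α only windows was -1.32 (-2.97 to 0.546) and 5.73. The promoter share of shared minus BMAL1 only peaks was -1.13 points under shBMAL1 (-4.65 to 2.47) and 9.36 points in shCNT (4.69 to 13.9), and that of the GC box GGGCGG -1.27 (-4.58 to 2.17) and 8.29 points (3.76 to 12.9). These 3 shBMAL1 intervals include 0, so no direction is shown there.

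For the AP-1 site, shared minus BMAL1 only was 2.63 points under shBMAL1 (-0.194 to 5.65) and -2.62 in shCNT (-5.59 to 0.678), and shared minus HIF2α only was 3.78 (0.973 to 6.76) and -3.02 (-5.90 to 0.205), so that 3 of these 4 intervals include 0. For GCGTG, HIF2α only minus BMAL1 only was 0.213 and -0.0655 points, and both intervals include 0.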

How the results depend on the processing

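Of 104 recomputed values none reversed in sign, 35 moved beyond the reported interval (for gene counts, beyond 1.5 times), and 69 did not. Shares, distances and gene counts cannot change sign, and a reversal was called only where the reported interval excluded 0. The absence of reversals therefore says little for much of this tally. The shared share of BMAL1 peaks (21.2%) became 18.6% with an overlap of 50%, 16.0% with summits within 200 bp, 16.7% with a −log10 p of at least 8, 23.7% with lists of equal length and 18.8% with a pileup of at least 5, and that of HIF2α peaks (28.4%) became 24.9%, 21.3%, 21.6%, 23.9% and 23.2%. A −log10 p of at least 8 and a pileup of at least 5 moved the HRE difference from 24.0 to 31.4 and 30.6 points, the promoter difference from 1.90 to 6.74 and 4.55, the AP-1 difference from -3.24 to -1.01 and -1.28 (both intervals include 0), the presence of shared minus HIF2α only peaks in the shCNT HIF2α list from 6.73 to 0.138 and 1.32, and the percentile difference of shared minus exclusive peaks from 12.8 to 4.91 and 10.7 for BMAL1 and from 10.8 to 0.709 and 0 for HIF2α. The last was also 0 with summits within 200 bp. Lists of equal length gave 10.1 for the BMAL1 percentile difference and 21.2 for the HRE difference, and windows of 100 bp gave 12.4 for the HRE difference. The median summit distance was 100 bp with a −log10 p of at least 8. With gene bodies and 10 kb to either side, 910 genes had a shared peak (582 in the report), 7 and 5 bHLH-PAS and oxygen sensing genes had a BMAL1 or HIF2α peak (4 and 3) and 2 renal lineage factor genes a BMAL1 peak (1). For TACGTG, with alternatives chosen after seeing the data, the difference of 21.0 points became 32.3 with a −log10 p of at least 8, 29.8 with a pileup of at least 5, 9.67 in 100 bp and 26.95 in 400 bp windows. The cause of these shifts was not tested. Sequencing depth was not analysed here, and the median summit pileup was 5 in both lists. No paired analysis was possible because each group had only 1 list, and no replicate could be left out for the same reason.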

Other observations

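The classes were spread unequally over the chromosomes. Chromosome 19, which makes up 1.95% of the genome's length, held 9.78% of shared HIF2α, 8.64% of BMAL1 only and 5.11% of HIF2α only peaks. Chromosome 7 (5.24% of the length) held 9.67% of shared HIF2α, 7.72% of BMAL1 only and 5.50% of HIF2α only peaks.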
